A study of Oryza sativa with 12 samples.

Results

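The comparison described here sets rice seedlings of the cultivar ZH11 against seedlings of the cultivar Huayang before any cold. Its members were chosen by their labels. They are 6 of the 12 arrays of the series, 3 from each cultivar, all sampled at 0 h. The ZH11 arrays come from the OsMYB30 overexpression lines OE2 and OE28 and from the ZH11 control CK. The Huayang arrays come from the osmyb30 homozygous mutants mutant1 and mutant2 and from the Huayang wild type WT. Every array was hybridised with RNA from shoot and leaves of soil-grown plants at the 4-leaf stage. The labels name no promoter for the overexpression construct, no kind of mutation, and no number of plants behind an array, so p-values measure the spread between these samples. Each of the 6 lines was also sampled after 6 h at 4 °C, and those arrays show which cultivar differences were present at both times. They also entered the normalization, the filter on brightness and the spread used for CK against WT.

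Cultivars of 1 species carry different alleles, and some genes are present or active in one and not in the other. OsMYB30 is a MYB transcription factor, a DNA-binding regulator of other genes. The cultivar and the OsMYB30 status do not vary independently in this set, since overexpression exists only in ZH11 and the mutation only in Huayang. CK against WT is the pair without either alteration, with 1 array a side. A difference between transcripts of unlike sequence and a difference in RNA amount cannot be told apart by a fixed probe. In a mixed tissue, fewer cells of a type and less RNA per cell cannot be told apart either.

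Mesophyll markers were bright on all 6 arrays. RBCS, the small subunit of Rubisco, read 21972.9 to 22819.0 and RCA, which activates Rubisco, read 14871.5 to 15817.4. Of 29 marker genes tested for mesophyll, root, dividing cells, secondary wall and epidermis, 0 passed the test between the cultivars in limma. Without mutant1, 1 root marker was called, lower in ZH11. The secondary wall markers CESA4, CESA7 and CESA9 differed by 0.15 to 0.26 on the log2 scale and the root markers had a median of -0.13. The 1 epidermis and wax marker tested differed most among the marker classes, at 0.47, and at 0.53 in CK against WT. The part of cell type proportions in the results below was not tested.

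The 6 arrays parted by cultivar first. On a first principal component with 62% of the variance, the ZH11 arrays lay at 30.88 to 34.38, mutant2 and WT at -37.39 and -37.35, and mutant1 at -23.63. A second component, with 19.5%, set CK, at 34.02, apart from OE2 at -26.68 and OE28 at -8.222. Pairs of arrays within a cultivar differed at least 2-fold at 29 (mutant2 and WT) to 347 (OE2 and CK) probe sets, and pairs across the cultivars at 588 to 926.

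**Figure D1:**
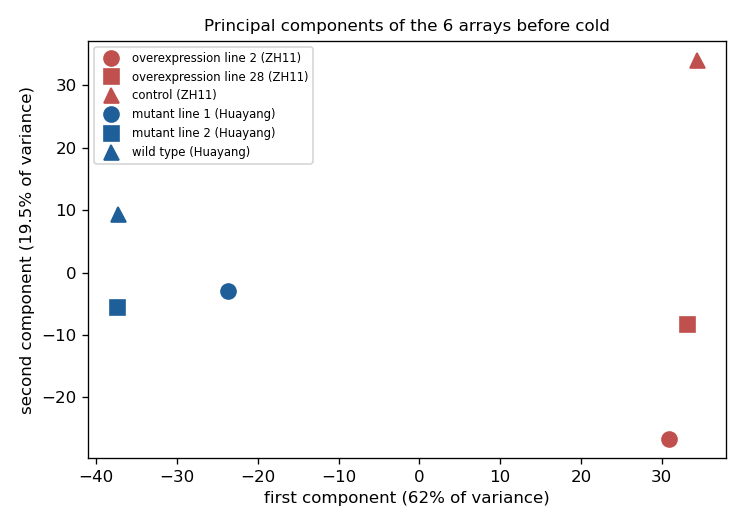
First against second principal component of the 6 arrays before cold, in units of log2 intensity scores (red, ZH11; blue, Huayang; 1 symbol an array). The cultivars lie on opposite sides of the first component, with mutant1 at -23.63 nearer to ZH11 than mutant2 and WT.

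The array of mutant1 stood apart from the other Huayang arrays and lay partway to ZH11. At 176 probe sets the 3 ZH11 arrays differed at least 4-fold from mutant2 and WT, with less than 2-fold spread on each side. On the intensity scale, mutant1 lay at 20 to 60% of the way from mutant2 and WT to ZH11 at 94 of them, and below 10% at 60. The median was 26.0% before cold and 17.5% after cold. The position differed by chromosome. Among these probe sets, those of the 16 genes on chromosome 8 had a median of 32.8% and those of the 9 genes on chromosome 1 a median of 4.18%. LOC4345418 on chromosome 8 read 1555.9, 1085.5 and 963.1 in OE2, OE28 and CK, 349.5 in mutant1, and 23.5 and 13.3 in mutant2 and WT. It read between the cultivars in mutant1 after cold as well, at 302.5. LOC4352868 on chromosome 12 read 2700.6 to 3091.6 in ZH11, 752.2 in mutant1, and 29.8 and 53.2 in mutant2 and WT. The origin of this position was not tested, and the count of calls, the shares per chromosome and the gene list counts that change are also given without mutant1.

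**Figure D2:**
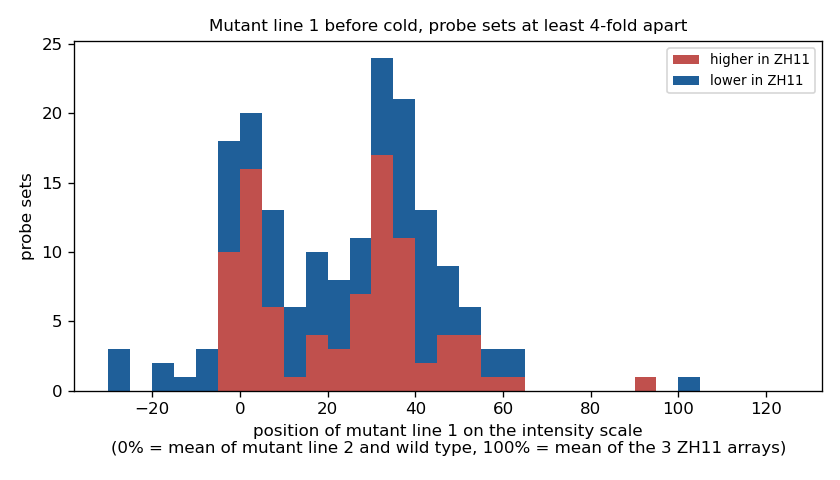
Histogram of the position of mutant1 before cold at 176 probe sets, in percent of the intensity step from the mean of mutant2 and WT to the mean of the 3 ZH11 arrays (red, higher in ZH11; blue, lower in ZH11). The probe sets form a heap near 0 and another between 20 and 60%, and 3 readings beyond the axis are drawn at the left edge.

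Across all genes the cultivar difference ran both ways. Of 34316 probe sets tested, 1413 (4.12%) passed limma's test at an adjusted p below 0.05, 601 (1.75%) higher and 812 (2.37%) lower in ZH11. An unadjusted p below 0.05 was reached by 5316. Among the calls, 197 higher and 314 lower were at least 2-fold, and 12 higher and 25 lower were at least 16-fold. All 1413 parted the groups without overlap, as did 7257 (21.1%) of all probe sets tested. Leaving out 1 array moved the count strongly. It was 1118 without mutant1 and 1329 without OE2, but 705 without OE28, 572 without mutant2, 580 without WT and 2430 without CK.

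Some differences were close to on and off. Of the 1413 calls, 497 were probe sets the annotation pairs with no single gene, and the largest difference higher in ZH11 was among them. That probe set, picked out after its values were seen, read 5618.5, 5858.4 and 6627.7 in OE2, OE28 and CK and 32.9, 32.5 and 28.6 in mutant1, mutant2 and WT, a log2 difference of 6.98 (SE 0.09, adjusted p in limma 6.29e-08). The genes that follow are those with the largest differences among probe sets paired with a gene of no published name. LOC4329983 read 11.1, 10.3 and 9.6 in ZH11 and 3337.8, 5777.0 and 4741.5 in Huayang. LOC4341223 read 39.0 to 55.7 against 5029.7 to 5564.7. Readings at or below 73.9, the brightest of the 62 dim marker probe sets on the array, have no reliable size, so such differences are given as bounds with readings below 73.9 set to 73.9. By that measure LOC4341223 was at least 59.8-fold lower in ZH11, LOC4329983 at least 50.5-fold and LOC4346832 at least 30.9-fold. LOC4325422 and LOC4350802 followed at 18.1-fold or more and 15.1-fold or more. In the opposite direction, LOC4347323 read 2086.0 to 2216.1 in ZH11 and 20.2 to 27.1 in Huayang, at least 23.9-fold higher. LOC4327840 was at least 20.8-fold and LOC9267585 at least 9.77-fold higher. These 8 genes had adjusted p values in limma from 6.46e-08 to 6.44e-06 and were called the same way in CK against WT and after cold. LOC4345418 and LOC4352868, described above, complete the 5 genes named in this direction, with adjusted p values in limma of 0.039 and 0.038. Both lost the call without OE2, OE28, mutant2 or WT.

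Other probe sets of these genes did not always follow. A second probe set of LOC4350802 was at -5.72, and another, at 0.74, had the opposite sign with an adjusted p in limma of 0.108. Of LOC4346832, a second probe set was at -1.88 and another at -0.02. Of LOC4352868, the other 3 were at -0.09, 0.14 and 0.69, the last of them called. Across the array, 181 called genes had another tested probe set. In 55 another was called the same way, in 3 the opposite way, in 91 the others were uncalled with the same sign, and in 32 they were uncalled with some of the opposite sign. Whether the probes cover sequence that differs between the cultivars was not analysed here.

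Among genes with a published name, the 15 largest differences on each side were unequal in size. The 15 lower in ZH11 ranged from 1.36 to 5.12 on the log2 scale, and the 15 higher from 0.50 to 1.59. Of the lower genes 13 were also called in CK against WT, and of the higher genes 6. These counts carry little weight, because CK and WT are 2 of the 6 arrays and the sign of CK minus WT helped choose the genes. The plot of published genes draws their readings array by array. Of the 15 higher genes, 3 kept the call whichever array was left out, PP2C75 and ACLA-2 among them, and the other 12 lost it without 2 to 5 of the arrays. OE28, mutant2 and WT were the arrays whose absence ended most of these calls. Of the 15 lower genes, 12 kept the call throughout. AT5 lost it without OE2, mutant2 or WT, HIRL2 without OE28 or mutant2, and PM19L1 without OE28 or any 1 of the Huayang arrays. Of 30 further called genes named from the lists below, PIP1-3, CSLA5, LOGL9, OSTB-16, NAAT1, MTP4, HAK16 and TPP2 kept the call throughout and 22 did not.

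**Figure D3:**
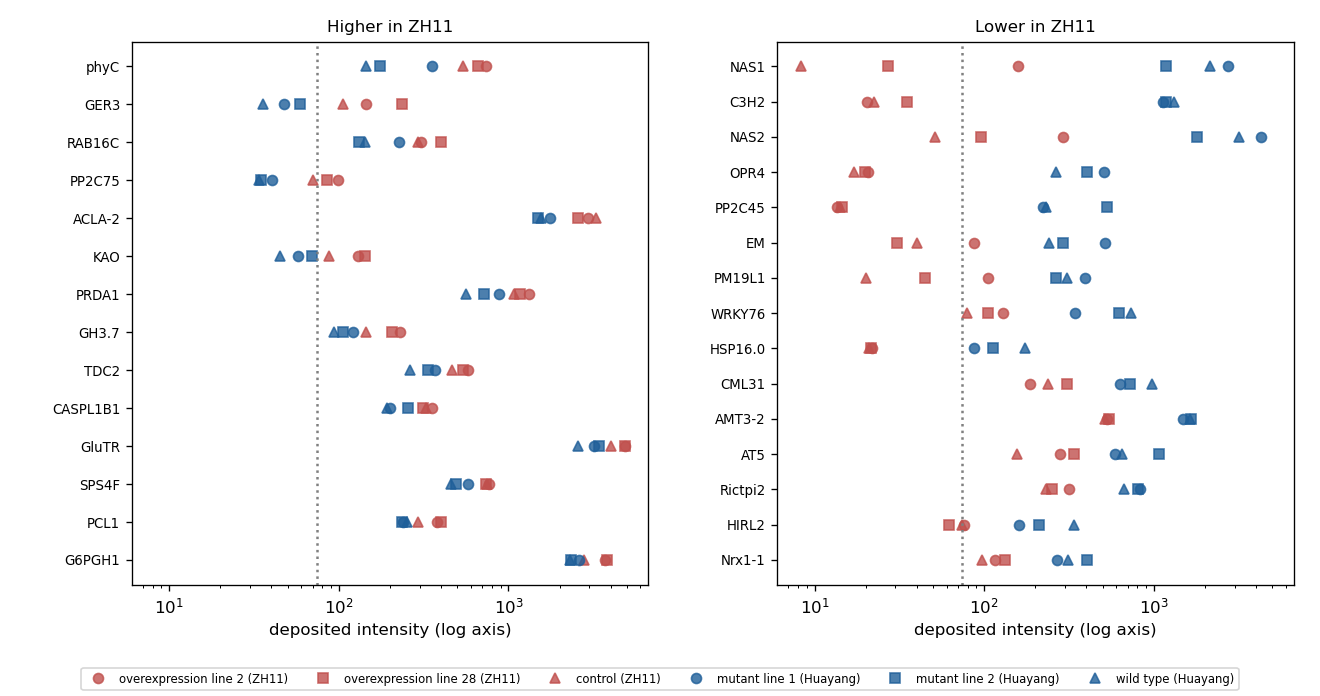
Deposited intensity (log axis) of the published genes with the largest differences, 1 row a gene and 1 symbol an array (red, ZH11; blue, Huayang); the dotted line marks the dim limit of 73.9. In no row does a red reading lie within the blue range. The mean log2 differences are largest for NAS1, C3H2 and NAS2, and the ZH11 readings of NAS1 and NAS2 are spread widely.

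Iron and nicotianamine genes held the largest published differences. Nicotianamine is a chelator that carries iron and zinc through the plant and, in grasses, is the precursor of the phytosiderophores that take up iron from soil. Of 21 genes tested in this list, 0 were higher and 5 were lower in ZH11, with a median of -0.16 beside 0.003 over all 15813 genes, of which 5.05% were called (2.03% higher, 3.02% lower). NAS1 and NAS2 encode nicotianamine synthases. NAS1 read 157.5, 27.1 and 8.3 in OE2, OE28 and CK and 2735.8, 1176.0 and 2141.8 in mutant1, mutant2 and WT. Every Huayang reading was above every ZH11 reading, and the ZH11 readings themselves were spread widely. NAS1 was at least 17.6-fold lower in ZH11 (adjusted p in limma 0.0052). NAS2 read 51.0 to 292.1 in ZH11 and 1793.6 to 4291.1 in Huayang, a log2 difference of -4.54 (SE 0.52, adjusted p in limma 0.0032). NAS3, another synthase, read 578.4 to 882.5 and 493.0 to 723.8, with a difference of 0.36 (adjusted p in limma 0.452).

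The genes downstream of nicotianamine differed less. NAAT1, the aminotransferase that leads from nicotianamine to phytosiderophores, read 513.7 to 864.6 in ZH11 and 1771.2 to 1896.5 in Huayang, and fell by 1.32 on the log2 scale (SE 0.16). YSL13 and YSL12, members of the yellow stripe-like transporter family, were lower by log2 differences of -1.09 (SE 0.17) and -0.58 (SE 0.09). The iron transporter genes IRT1 and IRT2 did not pass (adjusted p in limma 0.16 and 0.0522). IRT1 read 99.2 to 160.8 in ZH11 and 156.5 to 190.2 in Huayang. Without mutant1 the list again had 0 higher and 5 lower.

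After 6 h of cold the gap in the synthases was smaller, and within Huayang it was carried by 1 array. NAS1 read 1815.2 in WT but 59.8 and 35.1 in mutant1 and mutant2, against 9.8 to 197.0 in ZH11. The cultivar difference of NAS1 after cold was -1.46 (adjusted p in limma 0.532) and that of NAS2 was -1.03 (adjusted p 0.58). The change of the difference with cold did not pass either, at 3.66 for NAS1 (SE 1.71, adjusted p in limma 1.0). That fit did not pair the arrays of a line.

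Nutrient and metal transporters were called in 1 direction. Of 70 tested, 0 were higher and 6 lower in ZH11 (8.57%, beside 5.05% over all genes), with a median of -0.13. The ammonium transporter gene AMT3-2 read 527.9, 547.5 and 514.6 in ZH11 and 1487.3, 1662.5 and 1630.8 in Huayang. Both groups were tight, and the log2 difference was -1.58 (SE 0.07, adjusted p in limma 2.32e-05). It was -2.22 after cold. The other calls were the metal tolerance protein gene MTP4, at least 1.40-fold lower (its second probe set, at -0.20, was not called), the potassium transporter genes HAK16 (-0.86) and HAK17 (-0.84), the zinc transporter gene ZIP1 (-0.71), and AMT1 (-0.67). The aquaporin gene PIP1-3 read 1558.7 to 2135.3 in ZH11 and 3409.7 to 4215.5 in Huayang, a log2 difference of -1.15 (SE 0.15). It was the 1 call among 22 aquaporins (4.55%, near the 5.05% over all genes).

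Of the published genes named by size, 4 others lower in ZH11 were EM, PM19L1, HSP16.0 and CML31. EM, a late embryogenesis abundant protein that accumulates in dry seeds, read 30.7 to 86.7 in ZH11 and 241.9 to 515.1 in Huayang and was at least 3.62-fold lower. PM19L1, an AWPM-19-like membrane protein, was at least 3.30-fold lower. HSP16.0, a small heat shock protein, read 20.9 to 21.7 against 86.6 to 174.5, and was at least 1.48-fold lower. CML31, a calmodulin-like calcium sensor, read 185.4 to 309.3 against 629.8 to 978.5, a log2 difference of -1.62 (SE 0.23). After cold CML31 read 3840.1 to 5851.6 on all 6 arrays and its cultivar difference was -0.16 (adjusted p in limma 0.717). EM was at -0.26 after cold (adjusted p in limma 0.767).

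The list of cold regulators held calls in both directions before cold. Of 27 cold regulators, dehydrins and LEA proteins tested, 1 was higher and 1 lower (7.41%, beside 5.05% over all genes), with a median of -0.10. EM, described above, is not a member of this list. RAB16C, a dehydrin of a family that accumulates in drought, read 292.7 to 402.7 in ZH11 and 131.1 to 227.2 in Huayang (0.97, SE 0.19). MYBS2, a MYB factor of sugar signalling, read 2567.6 to 2736.9 against 3292.2 to 3494.7 (-0.35, SE 0.05), with its other probe sets at -0.54 and -0.01. DREB1A, a factor that switches on cold genes, read 54.1 to 84.8 against 29.0 to 45.7 and did not pass (0.67, adjusted p in limma 0.0793). Of 42 heat shock genes, 0 were higher and 4 lower (9.52%, beside 5.05% over all genes). Besides HSP16.0 these were HSF05, HSF1 and HSP81-1, at -0.22 to -0.48, and the list held 1 call without mutant1.

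Among defence-related genes, 2 WRKY transcription factors were lower in ZH11, and 0 of the defence proteins passed in limma. WRKY76, a repressor in the response to blast fungus, read 130.0, 105.8 and 79.0 in ZH11 and 342.4, 625.6 and 735.1 in Huayang, with a log2 difference of -2.23 (SE 0.28, adjusted p in limma 0.00542). WRKY62 was at least 1.59-fold lower, and these were the 2 calls among 6 WRKY factors tested (33.3%, beside 5.05% over all genes). Both genes lie on chromosome 9 with consecutive gene identifiers, so the 2 calls may not be independent. Of 12 defence proteins, 0 were called and 11 had a negative difference, with a median of -0.41 and of -0.73 in CK against WT. The chitinase gene Cht2 read 193.1 to 824.1 in ZH11 and 643.0 to 786.3 in Huayang, so the groups overlapped. Of 16 diterpenoid phytoalexin genes, which make antifungal compounds, 1 was called (6.25%, near the 5.05% over all genes). CYP76M7, a cytochrome P450 of that pathway, read 201.2 to 227.2 against 440.7 to 806.8 (-1.27, SE 0.22).

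In the diterpenoid list, CK read lower than the overexpression lines at several uncalled genes. CPS2, which catalyses the first cyclisation of the pathway, read 51.0 and 106.3 in OE2 and OE28 and 8.2 in CK, against 45.7 to 73.6 in Huayang. The list's median was -0.29 over the 6 arrays and -0.94 in CK against WT, which share CK and WT. HIRL2, related to proteins of the hypersensitive response, was at least 2.57-fold lower in ZH11.

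In the jasmonate list, 2 of 30 genes were lower in ZH11 and 0 higher, with a median of -0.13. This share, 6.67%, was near the 5.05% over all genes. OPR4, an oxophytodienoate reductase-like enzyme, read 20.7, 19.9 and 17.2 in ZH11 and 506.0, 405.8 and 265.0 in Huayang, at least 4.24-fold lower. The lipoxygenase gene CM-LOX1 read 437.6 to 805.6 against 1077.8 to 1399.3 (-1.06, SE 0.22). The readings of TIFY5, a repressor gene picked out after its values were seen, did not follow the cultivar, with 5.5, 254.7 and 4.5 in OE2, OE28 and CK and 4.9, 376.2 and 367.4 in mutant1, mutant2 and WT.

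Light perception held the largest difference among published genes higher in ZH11. phyC, the photoreceptor phytochrome C, read 737.6, 664.6 and 536.4 in ZH11 and 354.0, 173.7 and 144.8 in Huayang. The groups did not overlap and mutant1 lay between the others, with a log2 difference of 1.59 (SE 0.27, adjusted p in limma 0.0184). In CK against WT the difference was 1.85 and did not pass (adjusted p in limma 0.0568). GI, a clock component that controls flowering, read 3421.0 to 4001.0 against 2542.9 to 2994.5 (0.41, SE 0.08). These were the 2 calls among 16 clock and flowering genes (12.5%, beside 5.05% over all genes), whose median was 0.07. PHYA and PhyB, the related photoreceptors, were at -0.39 and 0.02 and did not pass. PCL1, a further clock component named by size, was higher by 0.54 (SE 0.10).

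Other higher genes in ZH11 had smaller steps. ACLA-2, a subunit of the ATP-citrate lyase that supplies acetyl-CoA, read 2567.5 to 3285.0 against 1487.4 to 1762.3 (0.87, SE 0.11). The germin-like protein gene GER3 was at least 1.82-fold higher and KAO, an oxidase of gibberellin synthesis, at least 1.44-fold. PRDA1, a chloroplast protein, was higher by 0.77, while its second probe set was at 0.13 (adjusted p in limma 0.616). GH3.7, of a family that conjugates hormones, was higher by 0.73, and TDC2, a tryptophan decarboxylase, by 0.71. GluTR, which opens chlorophyll synthesis, and SPS4F, a sucrose phosphate synthase, were each higher by 0.58. CASPL1B1 was higher by 0.61 and G6PGH1, of the pentose phosphate pathway, by 0.50. PP2C75, a protein phosphatase, read 70.5 to 98.9 against 34.0 to 40.2, too near the dim range for a size. Of 9 gibberellin genes, 2 were called (22.2%, beside 5.05% over all genes), KAO and GA20OX2. GA20OX2 read lower in ZH11 (-0.48, SE 0.10), and neither call held without mutant1.

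The remaining published genes lower in ZH11 were of several kinds. C3H2, a zinc finger protein, read 20.4, 35.2 and 22.5 in ZH11 and 1129.5, 1172.4 and 1307.7 in Huayang, at least 13.3-fold lower, while its second probe set was at 0.05. PP2C45, a protein phosphatase, was at least 3.38-fold lower, and its second probe set was at -0.01. Rictpi2, a triosephosphate isomerase, was lower by -1.49 (SE 0.10), but its second probe set was called higher, at 0.29 (adjusted p in limma 0.0225). AT5, an acyltransferase, was at -1.56 and the nucleoredoxin gene Nrx1-1 at -1.36. The lignin enzyme gene CAD6 read 146.9 to 156.0 against 286.4 to 452.7 (-1.17, SE 0.17). It was the 1 call among 30 phenylpropanoid genes (3.33%, beside 5.05% over all genes).

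The remaining lists lay on both sides of the 5.05% called over all genes. Light harvesting and photosynthesis had 0 calls among 18 genes with a median of 0.004, ribosomal proteins 0 among 24 with -0.04, and cell division 0 among 53 with 0.02. Of 36 housekeeping genes, 3 tubulin genes were higher in ZH11, by 0.26 to 0.44, and without mutant1 the list held 1 call. Starch and sugar metabolism had 3 higher and 2 lower of 49 (10.2%). SPS4F was joined by the trehalose phosphatase gene TPP1 (0.47) and the sugar transporter gene SWEET1B (0.30), against TPP2 (-0.83) and MST3 (-0.77). The lists of auxin, cell wall and cytochrome P450 genes had 1 higher each, and 1, 1 and 2 lower. Cytokinin and ethylene genes had 2 lower of 39, the cytokinin-activating enzyme genes LOGL9 (-1.23, SE 0.13) and LOGL5 (-0.53, SE 0.08). MADS, homeobox and zinc finger factors had 4 lower of 74, MADS18 first at -0.74, and without mutant1 the list held 0 calls. Metallothioneins had MT2A higher by 0.39 and 0 lower of 7, and glutathione and peroxide enzymes had 0 calls among 58, as had 7 receptor genes. Leaving out mutant1 changed further lists by 1 or 2 calls. The jasmonate list then had 1 lower, cytochromes P450 0 higher and 1 lower, and starch and sugar metabolism 2 higher and 2 lower. Aquaporins then had 1 higher and 1 lower, glutathione and peroxide enzymes 1 higher, and light harvesting and photosynthesis 1 lower.

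Called genes were spread unevenly over the chromosomes. With 1 probe set a gene, 13.3% of the 700 genes tested on chromosome 11 were called, 8.28% on chromosome 8, 7.34% on chromosome 12 and 7.06% on chromosome 6. The other 8 chromosomes had 2.98 to 4.95%, beside 5.05% over all. Without mutant1 the shares were 10.7% on chromosome 11 and 7.51, 6.08 and 5.03% on chromosomes 8, 12 and 6, beside 3.93% over all. In CK against WT the share on chromosome 11 was 7.43% beside 2.93%. Of the 93 called genes on chromosome 11, 56 were higher and 37 lower in ZH11, while on all chromosomes together 321 were higher and 477 lower. These shares are given as a description, with no test.

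**Figure D4:**
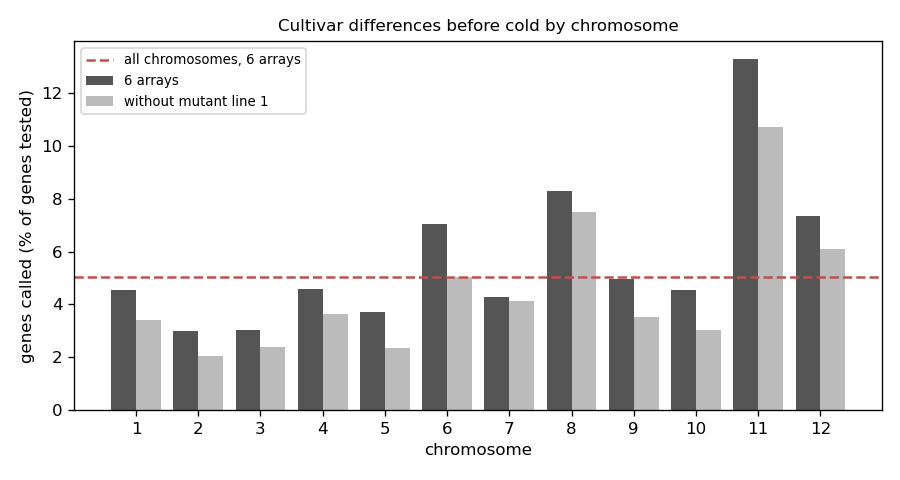
Share of genes called between the cultivars before cold, in percent of the genes tested on each chromosome (dark, 6 arrays; light, without mutant1; dashed line, 5.05% over all chromosomes). Chromosome 11 stands highest in both settings, at 13.3 and 10.7%.

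Called genes also lay next to each other. By the gene order of the RefSeq assembly ASM3414082v1, 25.2% of the 798 called genes had a called nearest neighbour among measured genes over the 6 arrays, beside 9.56% of all 15811 genes placed. The densest runs held 7 called genes among 11 measured in a row. One run, on chromosome 2, lies around LOC4329983, and 5 of its 7 called genes were lower in ZH11. Another, on chromosome 11 from LOC4350726 to LOC4350745, had 6 of 7 higher. ACLA-2 lies in a run of 6 on chromosome 11 and Rictpi2 in a run of 5 on chromosome 1.

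The pair without either alteration was then read by itself. CK against WT, fitted as 1 contrast among 8 group means in which each lone array is assumed to vary like the other groups, called 801 probe sets (2.33%), 268 (0.781%) higher and 533 (1.55%) lower in CK. Below an unadjusted p of 0.05 there were 4630. All 1413 cultivar calls had the sign of CK minus WT, a count that carries little weight because CK and WT are 2 of the 6 arrays. One marker for transformed plants, RPTR-Os-K01193-1_at, was bright in the engineered lines and read 2658.5 in WT and 18.6 in CK. The part of this signal in WT was not tested.

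A further contrast used separate arrays. OE2 and OE28 against mutant1 and mutant2 share no array with CK against WT, although that contrast carries OsMYB30 status as well as cultivar. It called 1341 probe sets (3.91%), of which 453 were at least 2-fold. Of these 453, 431 had the same sign in CK against WT, 353 with at least 2-fold there, and 22 had the opposite sign. Of all 1341, 1180 had the same sign in CK against WT and 161 the opposite sign. At 4-fold or more between the engineered lines there were 140 probe sets, and 6 of them differed by less than 2-fold in that direction between CK and WT. The first of these 6 is LOC4330027 on chromosome 2, which read 2776.8 and 2570.4 in OE2 and OE28, 48.4 in CK, 44.0 and 30.2 in the mutants and 64.1 in WT. LOC4332568 read 12292.5 and 11212.8 in the overexpression lines and 597.1 to 1042.5 on the other arrays. Both were chosen after their values were seen.

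**Figure D5:**
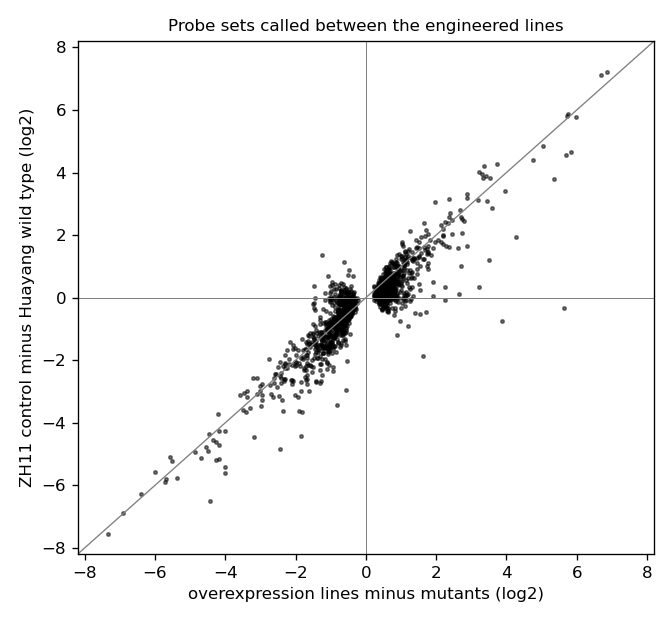
The 1341 probe sets called between overexpression lines and mutants (horizontal axis, log2 difference) against CK minus WT (vertical axis, log2 difference), 1 point a probe set, with the line of equal values. Of the points, 1180 have the same sign on both axes and 161 the opposite sign. A few with large horizontal values lie near 0 on the vertical axis.

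Most cultivar differences were present at both times. Of the 1413 calls before cold, 1396 had the same sign after 6 h of cold and 1178 were called the same way there, where 10.6% of all probe sets were called. The fit after cold took its spread from all 12 arrays, and the same model called 1806 probe sets before cold. The counts from 6 arrays before cold and from this model after cold are therefore not on like terms. Of 174 calls of at least 4-fold, 162 were called the same way after cold. The change of the cultivar difference with cold passed in limma for 35 probe sets (0.102%), 32 shifted up and 3 down in ZH11, and 1624 passed an unadjusted p below 0.05. With the line as a block, since each line gave an array at both times, 153 passed with a random block and 198 with a fixed block. Of the 35, 11 were also called before cold. Among all 35, the 2 with a published name were TIFY11A, a jasmonate repressor, and the glutaredoxin gene GRXS3, neither of them called before cold. TIFY11A read 43.2 to 87.4 in ZH11 and 110.1 to 140.0 in Huayang before cold, and its difference moved by 1.63 (SE 0.25, adjusted p in limma 0.0327).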

How the data were processed

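Biotin-labelled RNA was hybridised to 12 rice GeneChip arrays, 1 per sample. The deposited values are probe set intensity values on a linear scale, with array medians of 34.7 to 37.2. How the authors summarised and normalized them is not given in the sources used here. Control and marker probe sets (187 of 57381) were left out of tests. The platform's annotation names 1 gene for 22436 probe sets and several for 95. Published names (2457 genes) came from RefSeq synonyms. OsMYB30 is not among the paired genes and was not analysed here under its name.

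Intensities were taken as log2(value + 16), which understates changes of dim genes, and quantile normalized over the 12 arrays. Probe sets whose mean reached the 40th percentile were tested in R 4.3.3 with limma 3.58.1 (lmFit, eBayes with trend), and calls were made at 0.05 after Benjamini-Hochberg adjustment. The cultivar comparison used 6 arrays (4 residual degrees of freedom) and CK against WT used 8 group means on 12 arrays (4). The interaction and the cultivar differences after cold used cultivar by time on 12 arrays (8). The fits were also run on simulated data in which all arrays varied independently, with no effect of line. That run cannot show how the pairing of arrays affects the fits. The number of arrays limits the precision.

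Each line was sampled at both times, which pairs its arrays. Deviations of a line's 2 arrays from the means of their cultivar and time correlated at 0.29 to 0.67. Named are the 15 largest called differences each way among genes with a published name whose groups do not overlap and whose CK minus WT has the same sign, the 5 largest each way of other genes, and the 3 largest called members each way of each list (2 as values where none was called). Of these, 1 gene is counted but not reported here by name or drawn. Other list members, and genes of contrasts, were picked after their values were seen. Lists use the brightest probe set of a gene. Members, lists and alternatives were chosen with earlier results of these data known, and the dim limit of 73.9 after seeing the data.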

Additional observations from a re-analysis of the deposited data

Results flagged for a closer look

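Marker probe sets for reporter and selection genes lie outside the tests. Before cold, RPTR-Os-A00196-1_s_at read 9032.6 and 10805.7 in OE2 and OE28 and 25.8 to 49.0 on the other 4 arrays. RPTR-Os-K01193-1_at read 12525.0 in OE2, 11860.8 in OE28, 13835.2 in mutant1, 17781.9 in mutant2, 2658.5 in WT and 18.6 in CK. The other 62 marker probe sets read at most 73.9. Of the signal in WT the origin was not tested.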

How the results depend on the processing

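The cultivar count of 1413 was 1121 to 1944 under most settings, among them the deposited values, median centring, averaged probe sets, other filters and pseudocounts, and the line as a replicate block (1944). It was 511 with a 2-fold minimum, which is part of that setting, and 2301 with 8 group means weighted equally. Leaving out 1 array gave 572 to 2430. The cause was not tested. The count for CK against WT, 801, was 585 to 863. The interaction count of 35 rose to 153 with the line as a random replicate block and 198 with a fixed one. Of the 40 genes named by size, 20 kept their call in every setting, NAS1, NAS2, C3H2, OPR4, WRKY76 and AMT3-2 among them. The 2-fold minimum is 1 of these settings, and it ended 13 calls by their size alone. None of the 40 genes changed sign apart from other probe sets of C3H2 (0.0533), Rictpi2 (0.29), LOC4352868 (-0.0941) and LOC4350802 (0.74). phyC lost its call with only overexpression and mutant arrays and without OE28, mutant2 or WT. A group mean at or below 73.9 limits the size of a call. That held for the Huayang mean in 239 higher calls and for the ZH11 mean in 312 lower calls. In 188 of these calls both means were that dim, as in 12481 of the 34316 probe sets tested.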
